A study of Mus musculus with 4 samples.

Results

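The ADAMTS genes encode secreted zinc proteases with thrombospondin repeats that cut proteoglycans, procollagens and other proteins of the extracellular matrix. The genes described here are 10 listed members: Adamts1, Adamts2, Adamts4, Adamts5, Adamts7, Adamts9, Adamts10, Adamts12, Adamts15 and Adamtsl2, of 18193 genes that the array represents by a probe set of their own. A member was represented by every probe set annotated to its symbol alone. That gave 17 probe sets for 9 genes, while Adamts2 had no such probe set in the annotation used and was not analysed here.

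Signals were measured in leaflets of the aortic and pulmonary (semilunar) valves of newborn mice, on 4 Affymetrix arrays. Each array held RNA pooled from 3 neonates, 2 pools of Cxcr7-/- mutants and 2 Control pools of wildtype littermates. Per the labels a mutant contributed 4 to 6 leaflets and a wildtype 6, and the number in each pool was not given in the sources used here. No treatment is named, and the strain, the sex, the litters and the design of the mutant allele were not given in the sources used here. Cxcr7 (now Ackr3) is a receptor that binds and clears the chemokine CXCL12, and the comparison asks how the leaflets of newborns without it differ from those of their littermates.

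A leaflet is built of layers rich in collagen, proteoglycan and elastin. The soft, proteoglycan-rich tissue of the fetal valve is remodelled around birth, in part through cleavage of versican by proteases of this family. Within the family, ADAMTS1, ADAMTS4, ADAMTS5, ADAMTS8, ADAMTS9, ADAMTS15 and ADAMTS20 form the group that cuts versican and aggrecan. ADAMTS7 and ADAMTS12 cut the cartilage oligomeric matrix protein COMP, ADAMTS10 acts at fibrillin microfibrils, and ADAMTSL2 resembles the family but has no protease domain. TIMP3 is the main tissue inhibitor of these enzymes, and convertases such as furin remove their inhibitory propeptide.

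The results turn first on Adamts1, so the stretch before its start site is shown, taken from RefSeq (GRCm38.p6, minus strand, chr16:85803114-85803213, the 100 bases before the annotated start, 5′ to 3′). Capitals mark a TATA box (TATAAA) and GC boxes (GGGCGG), searched on both strands. RefSeq entries were found in the table used for 5 of the 10 members.
Adamts1: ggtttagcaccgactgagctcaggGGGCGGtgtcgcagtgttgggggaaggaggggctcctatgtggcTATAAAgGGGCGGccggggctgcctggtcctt
The TATA box begins 32 bases before the start, and 1 of the 2 GC boxes shown lies next to it. In the 250 bases before the start a TATA box was present in 12.4% of the 32851 promoters of the table, and in 2 of the 5 members (Adamts1 and Adamtsl2). A GC box was present in 32.7% of the promoters and in 4 of the 5 members. Letters of the CCAAT box (CCAAT, in 33.8% of promoters), the E-box (CACGTG, 6.02%), the AP-1 site (TGACTCA, 4.46%) and the cAMP response element (TGACGTCA, 1.55%) were not in this window of Adamts1 or of the other 4 members. These matches describe the sequence, and the arrays measured no binding to it.

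Adamts1, which encodes a versicanase induced in inflammation, had higher signal in both mutant pools than in both Control pools. Its signal was 3571 and 2965 in Cxcr7-/- leaflets against 2158 and 1773 in Control leaflets. The genotypes did not overlap, and a mutant pool exceeded a Control pool by 1.37 to 2.01 times in the 4 cross comparisons. On the scale log2(signal + 22), the log2 fold change (Cxcr7-/- minus Control) was 0.73 ± 0.25 (SE, n = 2 and 2 pools), a 1.66-fold difference with a 95% interval from 1.10 to 2.48. The 2 pools of a genotype differed by 0.27 (mutant) and 0.28 (Control) on the same log2 scale. Limma gave an unadjusted p of 0.0208 and an adjusted p = 0.447 over the 22518 probe sets tested, so the gene did not pass the threshold of 0.05. The study itself is known to have named Adamts1 from these arrays, so the value is not independent evidence of a direction.

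Adamts5 encodes the aggrecanase that also cuts versican in developing valves. At its brightest probe set, its values relative to their mean were nearly those of Adamts1. That probe set gave 1523 and 1263 for the mutants against 975.8 and 709.1 for the Controls. Both mutant pools lay above both Control pools, by 1.29 to 2.15 times. The log2 fold change was 0.72 ± 0.29, with a 95% interval from 0.05 to 1.39, and limma gave an unadjusted p of 0.0376 and an adjusted p = 0.473. The gene had 4 probe sets, of which 3 passed the filter on dim signals, and all 3 were higher in the mutants. The second read 1224 and 1121 against 1087 and 623.7 (0.50 ± 0.33), and the third read 613.2 and 566.3 against 447.2 and 423.4 (0.42 ± 0.29). These 2 probe sets are annotated to the same source sequence, so they are not separate evidence. The fourth, with 6.603 and 17.59 against 1.684 and 0.9812, lay below the pseudocount of 22 and was not tested.

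**Figure D1:**
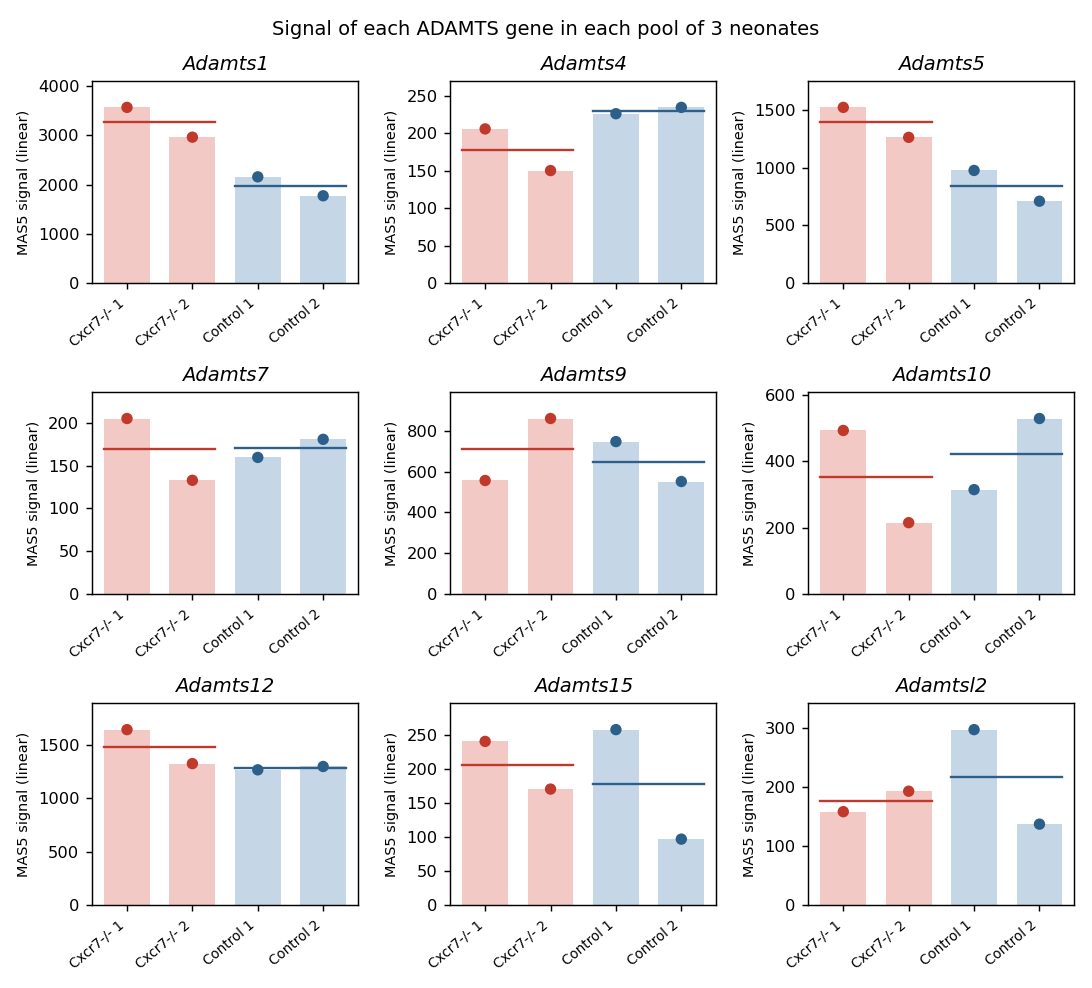
MAS5 signal (linear axis from 0) of the brightest probe set of each of the 9 measured members, 1 bar and point per pool of 3 neonates, with a line at the mean of each genotype; axes differ between panels, and levels cannot be compared between genes. Both Cxcr7-/- pools lie above both Control pools for Adamts1, Adamts5 and Adamts12 and below them for Adamts4, and the genotypes overlap for the other 5 genes.

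Over the 9 members, 2 had an unadjusted p under 0.05 with higher signal, Adamts1 and Adamts5, and 0 with lower signal. Over all probe sets tested, 3.94% were higher and 6.18% lower at that level (888 and 1391 probe sets). Counted by 1 probe set a gene, as the members were, 442 of 11260 genes were higher and 454 lower. Past the adjusted threshold there were 0 members, against 0% of all probe sets by limma, with or without an intensity trend in its prior. The members had been listed with results of these arrays known, so the counts are a description. They also rest on single pools. The count of members was lower when either mutant pool or Control replicate 2 was left out. The count over all probe sets changed as well. A genotype keeps only 1 pool in such a fit. In those fits the log2 fold change of Adamts1 stayed between 0.59 and 0.87 and that of Adamts5 between 0.50 and 0.95.

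In 3 members both mutant pools lay above both Control pools, where 20.1% of all probe sets tested did so. In 1 member both lay below, against 22.3% of all probe sets. Counted by 1 probe set a gene, as the members were, 2371 of 11260 genes lay above and 2152 below. The median log2 fold change of the 9 members was 0.11, against 0.005 over the 11260 genes measured by 1 probe set each.

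**Figure D2:**
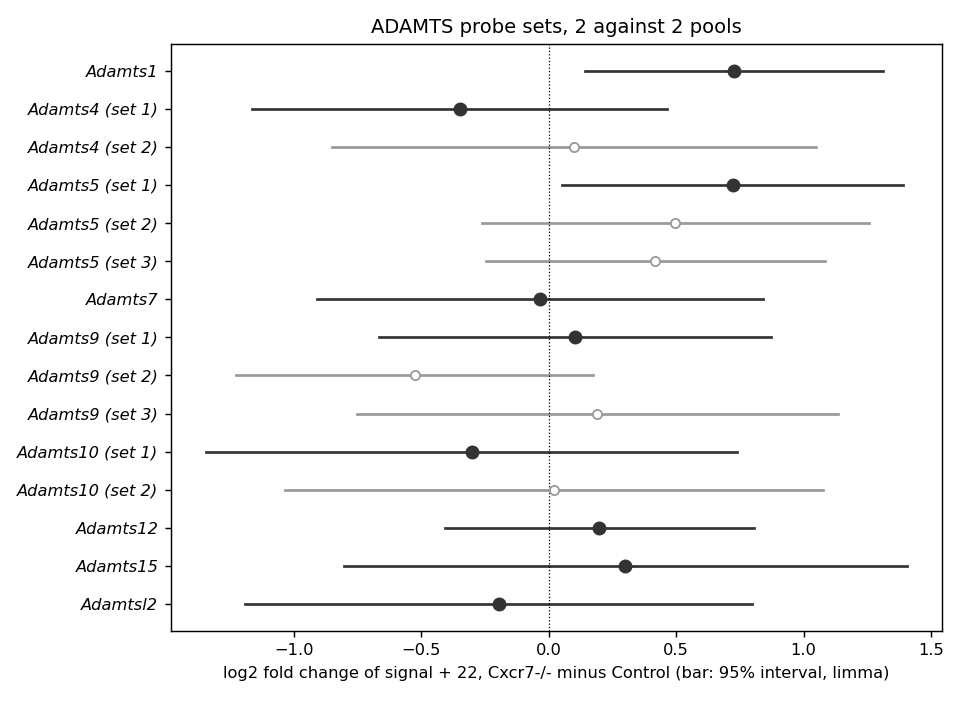
Log2 fold change of log2(signal + 22), Cxcr7-/- minus Control, for the 15 probe sets of members that were tested, with limma's 95% interval; filled points are the brightest probe set of a gene and open points its others, numbered by brightness. The intervals of Adamts1 and of the brightest Adamts5 probe set lie above 0, and those of the other 13 include it.

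Among the other versican- and aggrecan-cutting members, Adamts4 pointed down. Adamts4, which encodes an aggrecanase induced by inflammatory cytokines in cartilage, gave 206 and 150.3 for the mutants against 226.3 and 234.8 for the Controls. The genotypes did not overlap, but the log2 fold change of -0.35 ± 0.35 had a 95% interval from -1.16 to 0.47 (adjusted p = 0.765, limma). Its second probe set, with 166.1 and 154.8 against 202.7 and 106.7, overlapped and had the opposite sign (0.10 ± 0.41).

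Adamts9 encodes a versicanase that mice need for normal heart valves, and its probe sets disagreed. The brightest gave 556.1 and 859.5 for the mutants against 746.5 and 551.1, where each genotype had 1 high and 1 low pool, at 0.11 ± 0.33. The second read 432.6 and 340.8 against 540.9 and 584.8, with both mutant pools below both Control pools, at -0.53 ± 0.30 (adjusted p = 0.602, limma). The dimmest read 131.9 and 97.84 against 113.6 and 82.45 and overlapped, at 0.19 ± 0.41. No direction can therefore be given for the gene.

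Adamts15, another member of the versicanase group, read 240.9 and 170.8 against 258.2 and 97.21. Control replicate 2 was low and Control replicate 1 was the highest of all pools. The log2 fold change was 0.30 ± 0.48. Left out in turn, the Control pools set its sign: it was -0.32 without Control replicate 2 and 0.92 without Control replicate 1.

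Of the COMP-cutting proteases, Adamts12 read 1639 and 1322 against 1264 and 1295. Both mutant pools were above both Control pools, though Cxcr7-/- replicate 2 by only 1.02 times over the nearer Control pool. The log2 fold change was 0.20 ± 0.26, with a 95% interval from -0.41 to 0.80. Its other probe set, with 1.126 to 19.92 across the 4 pools, was too dim to test. Adamts7 read 204.9 and 132.8 against 159.5 and 180.6, and the mutant pools lay on either side of the Controls. Its log2 fold change of -0.03 ± 0.38 changed sign with median centring (0.02) and quantile normalization (0.09). The interval from -0.91 to 0.84 holds differences of nearly 2-fold either way, so the arrays do not show that the gene was alike in the genotypes.

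Adamts10 and Adamtsl2 belong to the fibrillin-linked branch, whose human disease genes cause short stature with stiff skin and joints, and in some patients valve disease. Adamts10 gave 492.8 and 215.1 for the mutants against 314.6 and 528.8, where the spread between the mutant pools (1.12 on the log2 scale) exceeded the difference between genotypes (-0.30 ± 0.45). Its dimmer probe set read 66.21 and 142.4 against 88.1 and 106.1 (0.02 ± 0.46), with the mutant pools in the opposite order. Adamtsl2 read 158.8 and 193.5 against 298 and 137.6. Both mutant pools fell between the Control pools, at -0.20 ± 0.43, and the sign turned to 0.31 without Control replicate 1.

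**Figure D3:**
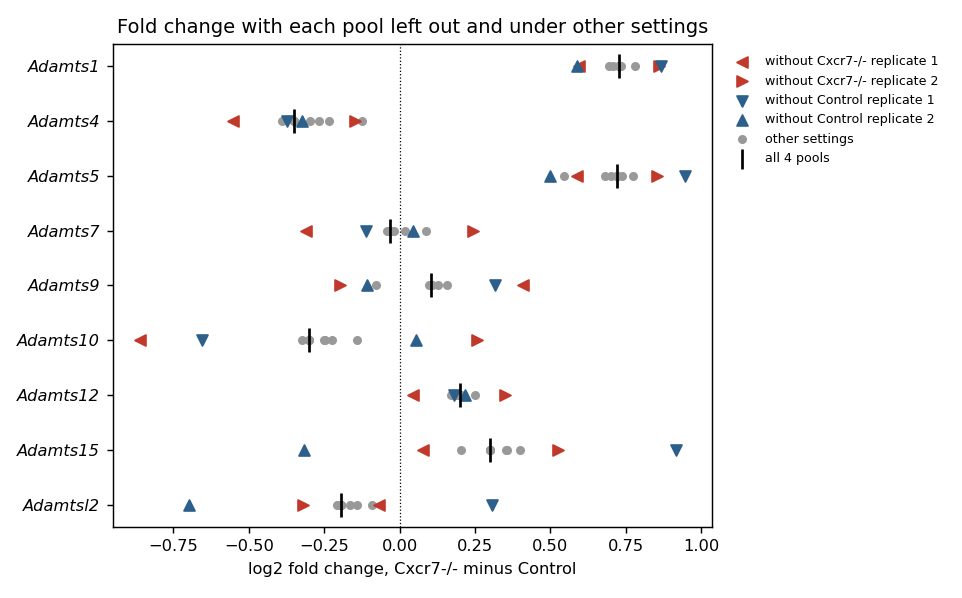
Log2 fold change (Cxcr7-/- minus Control) of the 9 members with all 4 pools (black bar), with each pool left out in turn (triangles) and under the other processing settings (grey points). Adamts1 and Adamts5 stay above 0 throughout, Adamts12 stays above 0 and Adamts4 below 0, and the other 5 genes fall on both sides, with Adamts7 crossing 0 also under median centring and quantile normalization.

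Adamts1 and Adamts5 lie next to each other on chromosome 16, with no other protein-coding gene between them in RefSeq. By the brightest probe set of each gene, the root mean square difference between their centred log2 values was 0.060 over the 4 pools. On that measure 21 of the other genes, or 0.187% of them, were nearer to Adamts1. For the other 7 members this difference ranged from 0.287 for Adamts12 to 0.691 for Adamts10, with 16.5% and 85.4% of genes nearer. The other tested probe sets of Adamts5 were not compared in this way. Their log2 fold changes (0.50 and 0.42) were smaller than that of the brightest (0.72). The 3 genes nearest to Adamts1 were Haus4, which encodes a subunit of the spindle complex augmin, at 0.018, Nup37, a nuclear pore gene, at 0.018, and Stxbp6, which encodes a syntaxin-binding protein, at 0.020. Haus4 read 541.9 and 455.1 against 326.5 and 269.9, Nup37 read 2112 and 1710 against 1234 and 1040, and Stxbp6 read 3603 and 2927 against 2159 and 1820. With 4 pools, a likeness of this size is a description and carries no test.

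A second neighbouring pair of the family is Adamts8 and Adamts15 on chromosome 9. Adamts8, a versicanase-group gene outside the listed members, gave 2507 and 2299 for the mutants against 1448 and 1644, with no overlap. Its log2 fold change was 0.63 ± 0.25 (adjusted p = 0.463, limma), and it was between 0.54 and 0.72 with any 1 pool left out. Adamts15, as given above, overlapped. Whether the pairs differ from each other was not tested.

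**Figure D4:**
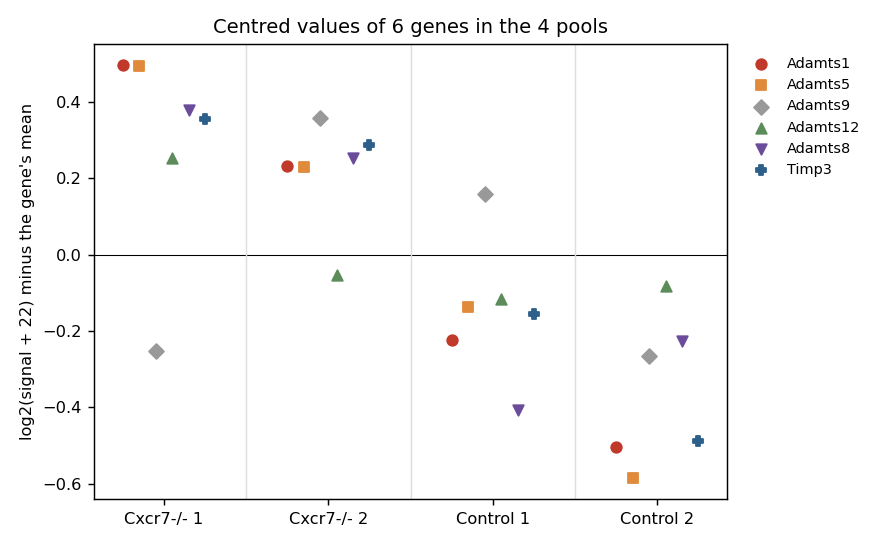
Log2(signal + 22) of the brightest probe set of 6 genes in each pool, minus its mean over the 4 pools. Points are shifted sideways for legibility. Adamts1 and Adamts5 nearly coincide, Adamts8 and Timp3 are likewise above 0 in both Cxcr7-/- pools and below it in both Control pools, and Adamts9 and Adamts12 are not.

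The rest of the family was compared over 16 further genes, of which 13 had a probe set of their own and 9 were bright enough to test. Of the 9, 2 were higher and 7 lower in the mutants, with a median of -0.07, a split that became 5 and 4 with quantile normalization (median 0.005). At an unadjusted p under 0.05 lay 3.94% (higher) and 6.18% (lower) of all probe sets. By the brightest probe set of each gene, Adamts8 alone was under it (0.0340, limma), and no gene passed after adjustment. Its p was 0.0617 without the intensity trend and 0.0823 with the replicate block. It was 0.204 and 0.125 when the first or the second mutant pool was left out, and 0.0712 when Control replicate 1 was. Adamts20, a versicanase-group gene known for its role in pigment cell spread, read 4665 and 4072 against 5446 and 5201 (-0.29 ± 0.22). Adamtsl3 was at 0.39 ± 0.36 and Adamtsl4, a microfibril-linked gene, at -0.30 ± 0.34, both with overlapping genotypes. The second probe set of Adamts6, singled out after its values were seen, read 158.1 and 148.7 against 279.1 and 305.1 (-0.84 ± 0.34). Its unadjusted p was 0.0369 and its adjusted p = 0.47 (limma), while the brighter one was at -0.07 ± 0.31.

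Of 17 listed substrates, 13 were tested, 6 higher and 7 lower in the mutants, with a median of -0.03, which turned to 0.025 with 7 higher and 6 lower after median centring. At an unadjusted p under 0.05, 2 were lower and 0 higher (6.18% and 3.94% of all probe sets), and none passed after adjustment. The 2 were the small proteoglycan gene Fmod and the aggrecan gene Acan. Fmod, which encodes fibromodulin, read 9717 and 8721 against 20110 and 15200 (-0.92 ± 0.23, adjusted p = 0.406, limma). Acan, the large cartilage proteoglycan, read 145.1 and 149.9 against 288.6 and 390.8 (-1.08 ± 0.35, adjusted p = 0.434, limma). The unadjusted p of Acan was 0.072 and 0.0615 with the first or the second mutant pool left out and 0.0548 with Control replicate 2 left out, while that of Fmod was under 0.05 in each of these fits. Fbn2, a fibrillin gene of fetal tissue, was at -0.44 ± 0.23 and Nid2, a basement membrane gene, at 0.48 ± 0.33.

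Versican itself (Vcan), the main valve substrate of the group, gave 19360 and 20770 for the mutants against 22390 and 16940 at its brightest probe set. Both mutant pools lay between the Controls, at 0.04 ± 0.22. Its 6 tested probe sets ranged from -0.40 to 0.88, 5 of them positive. The second brightest read 6069 and 6681 against 5335 and 3916 (0.48 ± 0.25). The third, annotated to the same source sequence as the brightest, read 1567 and 1951 against 1310 and 668.9 (0.88 ± 0.36). Its unadjusted p was 0.0385 and its adjusted p = 0.473 (limma). Neither of these overlapped, while the dimmer tested ones did. The count of substrates above used the brightest probe set only. The arrays measure its transcript and not its cleavage.

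Regulators of the proteases went in both directions. Of 17 listed, 16 were tested, 5 higher and 11 lower, with a median of -0.10. At an unadjusted p under 0.05, 1 was higher and 2 lower (3.94% and 6.18% of all probe sets), and none passed after adjustment. These counts depend on the fit. The p of Timp3 was 0.0642 without the intensity trend, 0.133 and 0.0974 with the first or the second mutant pool left out, and 0.0519 with Control replicate 2 left out. Timp3 gave 10350 and 9878 for the mutants against 7259 and 5763, with no overlap, at 0.64 ± 0.22 (adjusted p = 0.449, limma). All 4 of its probe sets were positive, from 0.23 to 0.64, but they are annotated to the same source sequence and are not separate evidence. The second brightest did not overlap (6204 and 6894 against 4802 and 5858). The third (1260 and 949.3 against 904.5 and 951.6) and the fourth (265.4 and 221.9 against 231.8 and 133.1) did. By its brightest probe set, the inhibitor was higher in the same pools as Adamts1 and Adamts5.

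The 2 lower regulators were Pcsk5, a convertase of the furin family, and Fn1, which encodes fibronectin. Pcsk5 read 3324 and 2964 against 5291 and 5090 (-0.72 ± 0.23, adjusted p = 0.432, limma), and Fn1 read 13320 and 12820 against 18980 and 17890 (-0.50 ± 0.20). Neither gene's genotypes overlapped. The p of Pcsk5 was 0.0612 and 0.121 with the first or the second mutant pool left out. That of Fn1 was 0.118 without the trend, 0.0871 with the replicate block, 0.0777 without the filter on dim signals, 0.0542 with median centring, and 0.153 and 0.194 with a mutant pool left out. Furin read 651.6 and 492.4 against 347 and 589.3 and overlapped, at 0.31 ± 0.35. Ltbp2, a microfibril gene, was at -0.57 ± 0.29. The lowest point of the list, the protease inhibitor gene A2m (singled out after its values were seen), read 70.41 and 608 against 2135 and 332.6 and overlapped.

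**Figure D5:**
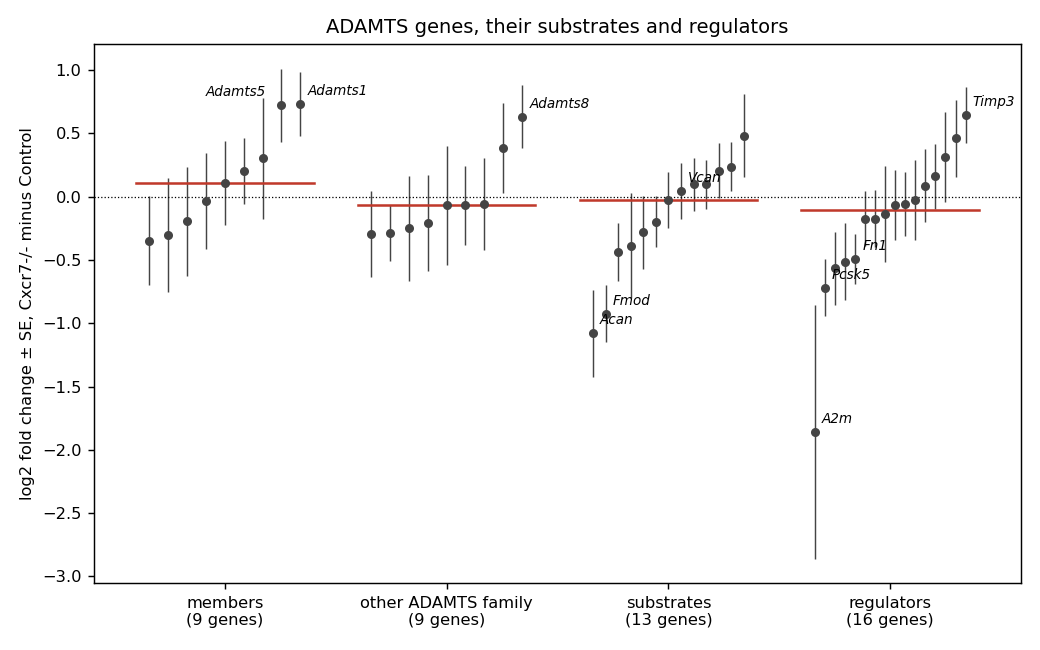
Log2 fold change ± SE (Cxcr7-/- minus Control), 1 point per tested gene, for the 9 members, 9 other family genes, 13 substrates and 16 regulators; red lines are the medians of each list. The medians lie between -0.10 and 0.11, with those of the other family genes and the substrates changing sign under another scaling, and Adamts1 and Adamts5 are the highest points among the members, Adamts8 among the other family genes and Timp3 among the regulators.

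The targeted gene Cxcr7 (Ackr3) gave 28.28 and 328.5 for the mutants against 4936 and 5698 for the Controls. Markers of valve interstitial cells were present in every pool, with a summed signal of 242700 and 258000 over 9 genes in the mutants and 267600 and 173700 in the Controls. Markers of other cell types are given by summed signal and by how many genes had both mutant pools on one side of both Control pools (20.1% of all probe sets tested were higher and 22.3% lower in that way). None of these markers passed the adjusted threshold, the smallest adjusted p being 0.400 (limma). Macrophage markers summed to 20620 and 18970 against 13490 and 11210, with 8 of 10 higher in both mutant pools. Neuron and Schwann markers summed to 2703 and 2152 against 1505 and 1535, with 4 of 5 higher. Cardiomyocyte markers summed to 85790 and 121900 against 155600 and 207200, with 11 of 12 lower. Endothelial markers summed to 12040 and 11290 against 15530 and 20240, with 6 of 9 lower, and smooth muscle markers to 15380 and 19520 against 23760 and 31340, with 6 of 8 lower. No listed marker was at 0 on any array, and erythroid markers overlapped (836.7 and 1885 against 1976 and 1351). The 3′ to 5′ ratio of the Actb control, a sign of RNA quality, was 15.5 and 11.7 in the mutants and 20.2 and 19.1 in the Controls, higher in both Control pools. That of the Gapdh control was 12.6 and 8.20 against 12.7 and 24.2, highest in Control replicate 2. The part of cell content and of RNA quality in the ADAMTS values was not tested, and in bulk leaflets fewer cells of a type cannot be told apart from less RNA per cell.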

How the data were processed

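RNA of neonatal semilunar valve leaflets was measured on 4 arrays, 2 pools of 3 neonates per genotype, after 2 amplification cycles from 50 ng of total RNA. The authors deposited 1 linear intensity per probe set and array, made with MAS5 in Affymetrix Expression Console per the submitters' processing notes. Versions, present or absent calls and any build were not given in the sources used here. Every array had the same trimmed mean (500.003 with the outer 2% of values at each end left out), so the authors' values were already scaled.

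After 64 control probe sets were set aside, 45037 remained. Signals were taken as log2(signal + 22), 22 being their 25th percentile, and the 22518 probe sets with a mean above the median were tested with limma 3.58.1 in R 4.3.3 (lmFit, eBayes with an intensity trend, two-sided, 5.85 prior degrees of freedom) and Benjamini-Hochberg adjustment at 0.05. Genes came from an annotation table by gene identifier, and a gene is represented by its probe set with the highest mean. The number of arrays limits the precision. An exact permutation test of 2 against 2 pools has a smallest possible p of 0.333 and was not run. The labels call the pools biological replicates and tie no replicate number to a litter or day.

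All 10 members are named, with the 4 genes of smallest unadjusted p of each list, Vcan, Timp3, Cxcr7 and the 3 genes nearest to Adamts1; Furin, A2m and the second Adamts6 probe set were added after their values were seen. The members and lists were chosen with earlier results of these data known. The test was checked on data simulated from its own fitted variances, with independent probe sets. That check cannot show how the test behaves where pools differ in cell content or RNA quality. Alternatives were other pseudocounts, filters and normalizations, no trend, a replicate block, averaged probe sets and each pool left out.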

Additional observations from a re-analysis of the deposited data

How the results depend on the processing

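No member passed the adjusted threshold under any of the alternatives tried. The filters, the trend and the replicate block leave a fold change as it is, so only the pseudocounts, scalings, averaged probe sets and left-out pools could turn a sign. Adamts1 ranged from 0.59 to 0.87 and its adjusted p from 0.0988 to 1, and Adamts5 from 0.50 to 0.95. With 1 pool left out, the sign turned for Adamts7 (-0.31 to 0.24), Adamts9 (-0.20 to 0.41), Adamts10 (-0.86 to 0.26), Adamts15 (-0.32 to 0.92) and Adamtsl2 (-0.70 to 0.31). Adamts7 also turned with median centring (0.02) and quantile normalization (0.09), and Adamts9 with its probe sets averaged (-0.08). Members at an unadjusted p under 0.05 were 2 in the main fit. They were 1 without the intensity trend, 1 with averaged probe sets and 1 with the replicate number as a block (replicate block). The count was also lower with either mutant pool or Control replicate 2 left out, where a genotype keeps only 1 pool. Of all 22518 probe sets, 2279 were at that level in the main fit, 2296 without the trend and 1730 with the block. With averaged probe sets it was 1000 of 11260 genes. The count of all probe sets past the adjusted threshold was 0, with 1 pool left out 0 to 673 (673 without Control replicate 1, 8 without Cxcr7-/- replicate 2). Members whose genotypes do not overlap were 4, of which 3 were higher and 1 lower, against 20.1% and 22.3% of all probe sets. With 1 pool left out such a count cannot be read, since a single pool overlaps less readily. The share over all probe sets was not counted in those fits. Same-numbered pools tended only weakly to deviate in opposite directions (correlation -0.262 across probe sets). A crossed block, added after seeing the data, gave 2 members at an unadjusted p under 0.05. Past the adjusted threshold it gave 0 members and 5 probe sets in all. The cause of these changes was not tested. Standard errors of the members' tested probe sets ranged from 0.25 to 0.48 on the log2 scale.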
